A study of Mus musculus with 18 samples.

Results

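The comparison set the response of UN-SCC679 cells to less DSTYK against their response to more of it, gene by gene. It used the 12 UN-SCC679 libraries of the 18 mouse RNA libraries in the series, chosen by the sample titles. UN-SCC679 is a mouse line from the A/J strain that is labelled lung squamous carcinoma. In the knockdown experiment, 3 libraries that carried the sh3 hairpin in TPLKO stood against 3 that carried TPLKO alone, and both arms had doxycycline. In the overexpression experiment, 3 libraries that carried OE_DSTYKwt, wild-type DSTYK put into pLENTI6, stood against 3 that carried pLENTI6 alone, and the treatment label of both arms was N.A. Each altered arm thus had its own empty vector, so that the knockdown and the overexpression effects shared no library. The labels do not give the promoter that drives the construct, the species of the inserted DSTYK, the number of clones, or whether replicates were separate cultures. Library names inside the deposited tables have another prefix in the TPLKO than in the pLENTI6 table, with no explanation in the labels. Vector, doxycycline and experiment cannot be told apart, so levels of TPLKO and pLENTI6 libraries are set side by side only as a description. In bulk RNA, fewer cells of a kind and less RNA per cell cannot be told apart either.

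DSTYK is a dual-specificity protein kinase, able to phosphorylate serine, threonine and tyrosine, and is also known as RIP5 for the likeness of its kinase domain to the RIP kinases. It has been linked to signalling from fibroblast growth factor (FGF) receptors to ERK and to regulated cell death. A gene held down by the kinase would be expected to rise when DSTYK is lowered and to fall when it is raised, and a gene that needs it to do the reverse. A gene that moves the same way in both experiments shows no such mirror image.

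Values are CPM, scaled counts relative to the size of the library, changes are log2 ratios, and the difference of effects is the change with sh3 minus the change with OE_DSTYKwt. A gene was called at an adjusted p under 0.05 in edgeR's quasi-likelihood test with Benjamini-Hochberg adjustment over the 14975 genes tested. Depth ran from 40525385 to 46371244 estimated counts per library, and edgeR's dispersion put the spread between replicates at 3.79%, as a coefficient of variation. One library stood apart: empty pLENTI6 replicate 1 differed from the other libraries of its group by a mean chi-square per gene of 12.2 and 13.9, against 1.91 to 5.0 for all other pairs. Some results are given without it as well. Of the squamous markers, Sox2 was at 32.6 to 39.6 CPM in the TPLKO libraries and 68.8 to 85.3 CPM in the pLENTI6 libraries, and Trp63, which specifies basal cells of squamous epithelia, at 1.96 to 13.9 CPM over all 12. Only 10 of 16 squamous markers passed the filter on low counts. Leukocyte markers summed to between 7.15 and 17.6 CPM in a library, with Adgre1 and Tyrobp among those at 0, and endothelial markers to between 2.47 and 6.05 CPM, with Cldn5 at 0.

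Dstyk itself moved as the labels say. It stood at 36.5, 36.4 and 38.2 CPM with empty TPLKO and at 26.7, 26.7 and 25.2 CPM with sh3. In the other experiment it stood at 29.4, 31.0 and 32.3 CPM with empty pLENTI6 and at 37.0, 37.2 and 38.5 CPM with OE_DSTYKwt. Neither pair of groups overlapped, and the OE_DSTYKwt libraries lay at the level of the empty TPLKO libraries rather than above it. The change was -0.50 with sh3 (SE 0.041; adjusted p = 5.44e-08) and 0.28 with OE_DSTYKwt (SE 0.040; adjusted p = 9.38e-05), and the difference of effects was -0.78 (SE 0.057; adjusted p = 3.54e-08). The gene (ENSMUSG00000042046.15, plus strand, chr1:132417555-132466958 of GRCm38) had nearly all of its counts in 1 transcript, ENSMUST00000045110.13. Only mouse transcripts were counted. The median change of the 878 genes tested on chromosome 1 was -0.0435 with sh3 and 0.0888 with OE_DSTYKwt, and the difference for Dstyk was -0.65 once chromosome medians were removed.

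The transcriptome did not answer as a mirror image. The difference of effects was called for 7777 genes (51.9% of tested genes). Of 3480 genes called in both experiments, 1365 (9.12% of all tested genes) moved in opposite directions and 2115 (14.1%) in the same direction, so that 39.2% of the genes called in both were opposite. Opposite genes were split evenly between 680 that were higher with sh3 and lower with OE_DSTYKwt (4.54% of tested genes) and 685 with the reverse pattern (4.57%). Genes of the same direction comprised 948 higher in both (6.33%) and 1167 lower in both (7.79%), or 1152 and 903 when libraries were scaled by their size alone. Across all tested genes the changes correlated with a Pearson coefficient of 0.158 and a Spearman coefficient of 0.15, given as a description because genes are not independent replicates. The knockdown effect was called for 9337 genes (62.4%) and the overexpression effect for 4404 (29.4%). It was higher for 31.0% and lower for 31.3% of genes in the knockdown, and for 13.7% and 15.7% in the overexpression. Scaled by library size alone, the counts were 5487 higher and 3836 lower in the knockdown, 2266 and 2083 in the overexpression, and 4454 and 3224 in the difference, so that the overexpression leaned the other way. Libraries of an experiment's arms did not overlap for 65.8% of genes in the knockdown, 43.7% in the overexpression and 33.1% in both. Among genes called in both experiments, 96% to 97.6% by direction had no overlap in both. For such genes a statement of no overlap thus adds little to the call. The knockdown changes were also larger, with a median size of 0.352 for called genes against 0.201.

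**Figure D1:**
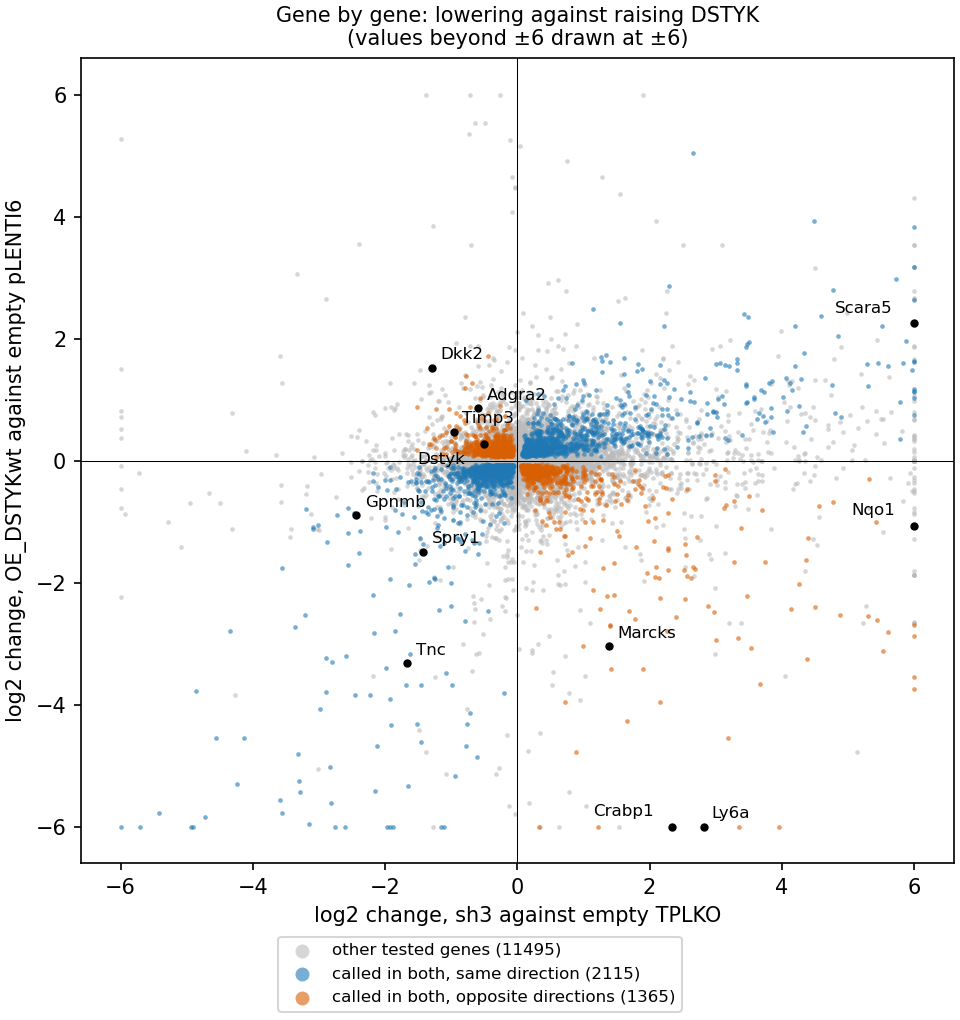
Each point is 1 of the 14975 tested genes, with the log2 change with sh3 against empty TPLKO on the x axis and with OE_DSTYKwt against empty pLENTI6 on the y axis; values past 6 are drawn at 6. The 2115 genes called in both with the same sign (blue) fill the lower left and upper right, and the 1365 with opposite signs (orange) the upper left and lower right, where those with large changes lie at the lower right.

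The even split held only for small changes. Where at least a 1.5-fold change was required in each experiment, 113 genes (0.755%) were higher with sh3 and lower with OE_DSTYKwt, and 14 (0.0935%) had the reverse pattern, 127 (0.848%) in all. At 2-fold the counts were 75 and 1, and at 3-fold 47 and 0. Among genes of the same direction, 188 rose (1.26%) and 137 fell (0.915%) at least 1.5-fold in both, 325 (2.17%) in all, and 30 and 50 did so at 3-fold. Without empty pLENTI6 replicate 1, the opposite counts at 1.5-fold were 106 and 10. Large opposite responses in these libraries were therefore nearly all rises on lowering DSTYK paired with falls on raising it. Each experiment taken alone leaned the same way among called changes of at least 2-fold. With sh3, 1216 genes rose and 382 fell, and with OE_DSTYKwt 131 rose and 261 fell. A lean of this kind was thus also present in each experiment alone, where it was weaker than the 75 and 1 of the opposite genes at 2-fold. Genes of the same direction numbered 88 higher and 82 lower in both at 2-fold. What gave the skew was not tested.

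**Figure D2:**
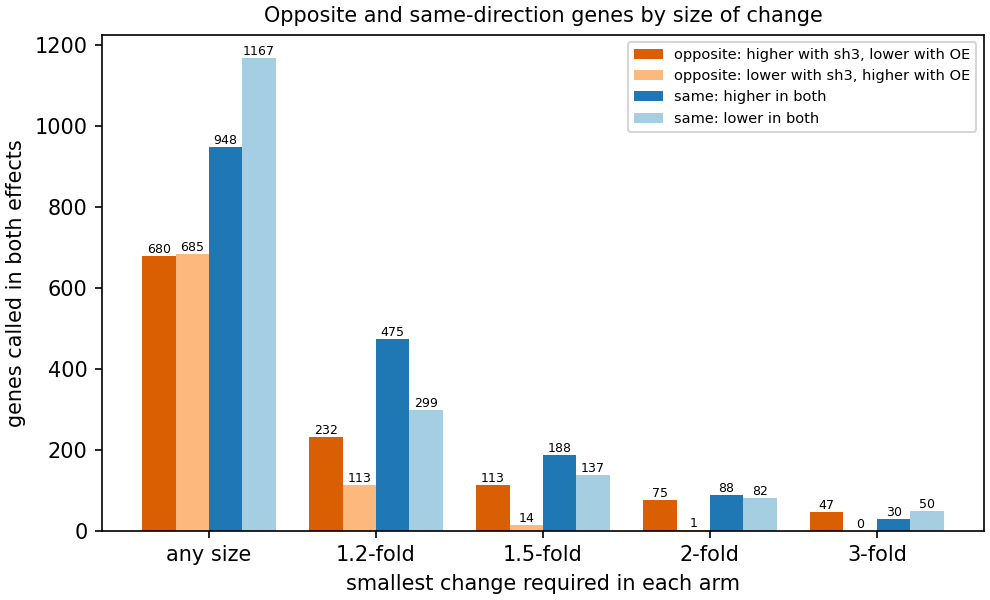
Bars count the genes called in both experiments, by direction, as the smallest change required in each experiment grows along the x axis from any size to 3-fold. Opposite genes that were lower with sh3 shrink from 685 to 0, while those higher with sh3 go from 680 to 47.

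The 250 bases before the start site are shown for genes that lead each set, the upper pair for the first pattern and the lower pair for the second. They are RefSeq promoters on build GRCm38.p6, at chr9:54764498-54764747 (plus strand), chr5:43981800-43982049 (minus), chr3:132085042-132085291 (plus) and chr3:92250397-92250646 (plus) in that order, and capitals mark motif matches on either strand.
Crabp1: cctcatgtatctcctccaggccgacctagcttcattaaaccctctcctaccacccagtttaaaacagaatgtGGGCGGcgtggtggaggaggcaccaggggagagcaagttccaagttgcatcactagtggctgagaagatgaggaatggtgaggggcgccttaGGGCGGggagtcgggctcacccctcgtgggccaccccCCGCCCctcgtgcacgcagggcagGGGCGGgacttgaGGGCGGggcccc
Fgfbp1: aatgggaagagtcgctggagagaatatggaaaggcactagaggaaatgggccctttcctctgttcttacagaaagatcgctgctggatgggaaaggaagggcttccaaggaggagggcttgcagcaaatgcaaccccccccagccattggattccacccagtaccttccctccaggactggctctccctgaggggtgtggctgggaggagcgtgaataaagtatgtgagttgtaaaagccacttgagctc
Dkk2: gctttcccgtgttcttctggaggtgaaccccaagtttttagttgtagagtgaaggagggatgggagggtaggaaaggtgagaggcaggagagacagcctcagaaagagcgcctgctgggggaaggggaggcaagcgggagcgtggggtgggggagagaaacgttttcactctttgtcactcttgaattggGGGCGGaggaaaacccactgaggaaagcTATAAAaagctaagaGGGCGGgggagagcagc
Sprr2a2: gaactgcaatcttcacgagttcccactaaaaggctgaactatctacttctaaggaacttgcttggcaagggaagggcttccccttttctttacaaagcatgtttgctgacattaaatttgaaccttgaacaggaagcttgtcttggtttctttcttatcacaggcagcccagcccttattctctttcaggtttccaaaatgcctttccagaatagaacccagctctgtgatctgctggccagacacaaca

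The Crabp1 window held 5 GC boxes (GGGCGG), the Dkk2 window GC boxes and a TATA box (TATAAA), and the Fgfbp1 and Sprr2a2 windows neither. None of the 4 held an antioxidant response element (TGACNNNGC), an AP-1 site (TGANTCA), an E-box (CACGTG), a CRE (TGACGTCA) or the ER stress response element. Over all 32851 RefSeq windows of this length, 32.7% held a GC box, 12.4% a TATA box and 10.2% an antioxidant response element. For the 81 of 113 genes of the first pattern at 1.5-fold that the promoter table holds, 56 of 110 windows held a GC box and 12 an antioxidant response element. The shares over all windows were not limited to tested genes, and shares over tested genes were not taken. These are matches of letters in a window and not sites of binding.

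Ly6a, which encodes the surface antigen Sca-1, gave the largest opposite response (minus strand, chr15:74994877-74998031 of GRCm38). It stood at 1.45, 1.38 and 1.71 CPM with empty TPLKO and 11.5, 10.8 and 9.55 CPM with sh3, and at 26.0, 23.3 and 22.9 CPM with empty pLENTI6 and 0.0452, 0.0948 and 0.119 CPM with OE_DSTYKwt. The groups did not overlap, which was a condition for naming the leading genes of either opposite pattern. The OE_DSTYKwt libraries were close to silent, with 11 counts over all 3 against 3095 with empty pLENTI6. The changes were 2.82 (SE 0.12) and -8.08 (SE 0.39), and the difference of effects was 10.9 (SE 0.41; adjusted p = 2.94e-14, edgeR). Its relative Ly6e stood at 3.36, 4.43 and 3.59 CPM with empty TPLKO against 104, 102 and 106 CPM with sh3, and at 18.6, 18.2 and 17.7 against 11.9, 11.2 and 10.7 CPM in the pLENTI6 arms. Here the rise with sh3 was the larger part, with changes of 4.77 and -0.68 (difference 5.45, SE 0.094). Members of the Ly6 family share sequence, so that their counts are uncertain where reads fit several of them.

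Crabp1, a carrier of retinoic acid inside the cell, showed the pattern of Ly6a (plus strand, chr9:54764748-54773110). Its levels were 2.66, 2.22 and 2.49 CPM with empty TPLKO and 12, 13.6 and 11.5 CPM with sh3, and 33.5, 31.1 and 27.9 CPM with empty pLENTI6 and 0.181, 0.0711 and 0.0716 CPM with OE_DSTYKwt. All 3 OE_DSTYKwt libraries together held 14 counts, and no groups overlapped. The changes were 2.34 (SE 0.12) and -8.10 (SE 0.41). Tmem176a and Tmem176b, neighbours on chromosome 6 that encode multi-pass membrane proteins, also went together. Tmem176b went from 5.85, 6.52 and 5.83 to 17, 15.6 and 15.8 CPM with sh3, and from 39.9, 36.0 and 39.1 to 6.16, 6.00 and 5.63 CPM with OE_DSTYKwt. With OE_DSTYKwt it thus came down to where the empty TPLKO libraries already stood. The difference of effects was 4.10 (SE 0.093) for Tmem176b and 4.42 (SE 0.14) for Tmem176a. These genes overlap at their starts, and reads there may be shared.

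Marcks, a substrate of protein kinase C that ties actin to the plasma membrane (minus strand, chr10:37133375-37138920), stood at 11.6, 9.16 and 9.17 CPM with empty TPLKO and 25.9, 24.5 and 27.8 CPM with sh3. It stood at 28.9, 27.4 and 27.2 CPM with empty pLENTI6 and 3.23, 3.56 and 3.34 CPM with OE_DSTYKwt. The sh3 and empty pLENTI6 libraries thus lay near each other, with the empty TPLKO libraries below them and the OE_DSTYKwt libraries lowest. The changes were 1.38 and -3.04, with a difference of 4.43 (SE 0.13; adjusted p = 9.24e-13, edgeR). Atp2b4, a calcium pump of the plasma membrane, went from 8.54, 9.23 and 9.14 to 25.3, 26.0 and 25 CPM with sh3, and from 4.60, 5.23 and 4.71 to 2.26, 1.75 and 2.55 CPM with OE_DSTYKwt. Its groups did not overlap in either experiment, and the difference was 2.65 (SE 0.13). Fgfbp1, a secreted carrier that releases FGFs from the matrix, went from 7.42, 6.92 and 6.25 to 11.8, 11.4 and 10.6 CPM with sh3. It went from 11, 10.3 and 9.81 to 5.42, 6.26 and 5.77 CPM with OE_DSTYKwt. Both experiments took it between about the same levels, in opposite directions, with changes of 0.71 and -0.83 (difference 1.55, SE 0.11).

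The quinone reductase gene Nqo1 (minus strand, chr8:107388225-107403206) stood at 0.460, 0.667 and 0.402 CPM with empty TPLKO and 38.7, 36.9 and 36.4 CPM with sh3. In the pLENTI6 arms it stood at 3.90, 3.86 and 4.13 CPM with the empty vector and 2.08, 1.85 and 1.74 CPM with OE_DSTYKwt. The sh3 libraries lay far above all others, and the fall with OE_DSTYKwt was small beside the rise. The changes were 6.17 (SE 0.15) and -1.07 (SE 0.10), and the difference was 7.24 (SE 0.18; adjusted p = 6.72e-14, edgeR). Bmf, a BH3-only protein that promotes cell death, went from 18.7, 17.9 and 17.7 to 44.2, 40.8 and 43.5 CPM with sh3 and from 5.71, 6.92 and 6.78 to 4.45, 3.15 and 4.44 CPM with OE_DSTYKwt. Neither pair of groups overlapped, and the difference of effects was 1.93 (SE 0.13).

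Among genes lower with sh3 and higher with OE_DSTYKwt, Dkk2, a secreted modulator of Wnt signalling, was the only one past 2-fold in both experiments (plus strand, chr3:132085292-132180304). It stood at 16.5, 14.9 and 16.4 CPM with empty TPLKO and 6.43, 6.27 and 6.82 CPM with sh3, and at 2.41, 2.68 and 2.43 CPM with empty pLENTI6 and 7.88, 6.8 and 7.01 CPM with OE_DSTYKwt. The empty arms stood apart and both altered arms lay between them. The changes were -1.30 (SE 0.073) and 1.53 (SE 0.089), and the difference was -2.82 (SE 0.11; adjusted p = 6.65e-11, edgeR). Sprr2a2, a small proline-rich protein of the cornified envelope with near-identical relatives, went from 14.5, 16.3 and 15.2 to 9.19, 9.26 and 9.50 CPM and from 3.73, 3.26 and 3.42 to 6.41, 6.38 and 6.23 CPM. Its groups did not overlap, and the difference was -1.59 (SE 0.097).

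Several abundant genes shared this pattern. Adgra2, an adhesion receptor that takes part in Wnt signalling (plus strand, chr8:27085583-27123436), stood at 332, 333 and 325 CPM with empty TPLKO and 220, 218 and 219 CPM with sh3, and at 120, 124 and 128 CPM with empty pLENTI6 and 229, 224 and 223 CPM with OE_DSTYKwt. Both altered arms came to about the same level from opposite sides. The changes were -0.59 and 0.86, with a difference of -1.45 (SE 0.034; adjusted p = 2.53e-13, edgeR). Timp3, an inhibitor of matrix metalloproteinases (plus strand, chr10:86300372-86349506), went from 4000, 4060 and 4030 to 2070, 2050 and 2100 CPM with sh3 and from 1450, 1570 and 1590 to 2170, 2130 and 2120 CPM with OE_DSTYKwt. It too met at one level in both altered arms, and its changes were -0.96 and 0.48 (difference -1.44, SE 0.038). Its relative Timp2 had changes of -0.57 and 0.42. Thbs1, a matricellular protein, went from 9700, 9840 and 9970 to 3950, 3930 and 4020 CPM and from 1930, 2150 and 2240 to 2530, 2540 and 2550 CPM, without overlap (difference -1.58, SE 0.053).

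Aldh1l2, a mitochondrial enzyme of folate metabolism, went from 244, 255 and 253 to 181, 179 and 181 CPM with sh3 and from 63.2, 69.8 and 71.4 to 102, 99.6 and 99.6 CPM with OE_DSTYKwt. Here the altered arms remained apart, and the TPLKO libraries were above the pLENTI6 libraries throughout. The difference was -1.04 (SE 0.050). Rab11fip1, an effector of Rab11 in membrane recycling, had changes of -1.07 and 0.46, and the secreted glycoprotein gene Stc2 had -0.58 and 0.57. Xkr5 (-0.79 and 0.62), Dynap (-1.37 and 0.53) and the interferon-inducible GTPase gene Tgtp1 (-1.03 and 0.56) complete the 10 leading genes of this pattern. Tgtp1 has a near-identical neighbour, so its counts are uncertain. In every one of the 10 the libraries of the arms did not overlap in either experiment, a condition of the choice.

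**Figure D3:**
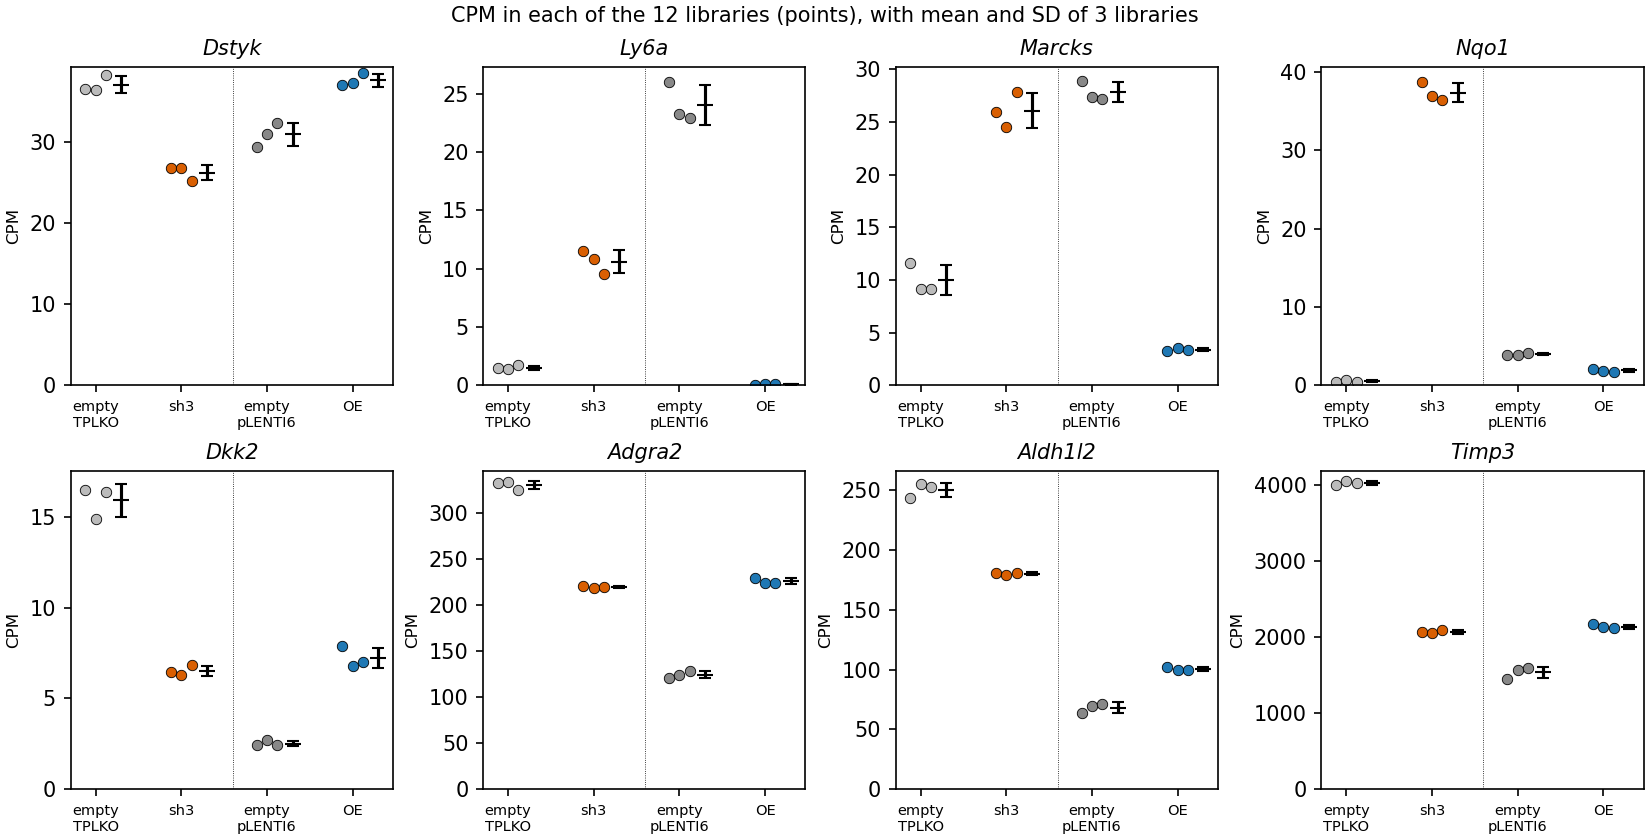
Points show the CPM of each of the 12 libraries for 8 genes (y axis from 0), in 4 groups along the x axis, where OE is OE_DSTYKwt; the bars beside them give the mean and SD of 3 libraries. Ly6a, Marcks and Nqo1 are higher with sh3 and lower with OE_DSTYKwt than with their own empty vector, and Dstyk, Dkk2, Adgra2, Aldh1l2 and Timp3 show the reverse.

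Other strong responses had the same direction under both constructs. Spry1, an inhibitor of receptor tyrosine kinase signalling, stood at 21, 23.2 and 22.8 CPM with empty TPLKO and 8.23, 8.77 and 8.01 CPM with sh3, and at 23.1, 23.1 and 25.1 CPM with empty pLENTI6 and 8.22, 8.70 and 8.44 CPM with OE_DSTYKwt. Levels before and after were alike in both experiments, with changes of -1.42 (SE 0.058) and -1.49 (SE 0.058), and the difference of 0.07 (SE 0.082) was not called (adjusted p = 0.507, edgeR). Tnnt2, the cardiac form of troponin T, fell by 1.12 and by 1.22 on the log2 scale, and its difference of 0.11 was not called (SE 0.063; adjusted p = 0.167, edgeR). That call was gained with library size alone (0.16, adjusted p = 0.0469) and with chromosome medians removed (0.24, adjusted p = 0.00516), both in edgeR.

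Tnc, the matrix protein tenascin-C, went from 28.2, 32.0 and 30.7 to 9.96, 9.91 and 8.79 CPM with sh3 and from 29.5, 34.3 and 33.3 to 2.91, 3.34 and 3.48 CPM with OE_DSTYKwt. It fell in both, and further with OE_DSTYKwt (difference 1.66, SE 0.12; adjusted p = 3e-08, edgeR). Gpnmb, a glycoprotein of lysosome-related organelles, went from 40.8, 40.7 and 40.7 to 7.48, 7.70 and 7.45 CPM and from 105, 105 and 105 to 55.4, 57.3 and 56.6 CPM. Its fall was larger with sh3 (difference -1.54, SE 0.043). Among genes higher in both, Scara5, a ferritin receptor, went from 0.508, 0.467 and 0.452 to 66.8, 64.9 and 63.3 CPM with sh3 and from 1.52, 1.6 and 1.13 to 6.14, 6.87 and 7.23 CPM with OE_DSTYKwt. Sulf2, which removes sulfate groups from heparan sulfate outside the cell, had changes of 3.32 and 1.6. Ces1d, a carboxylesterase of a family with close relatives, had changes of 5.88 and 1.95.

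Among 1349 genes with a called difference of at least 2-fold (9.01% of tested genes), 1061 were higher (7.09%) and 288 lower (1.92%). In 1159 of them (85.9%) the knockdown change was the larger of the pair, and 717 were called in the knockdown alone, against 68 in the overexpression alone. Most large differences thus came from 1 experiment and were not opposite responses: 271 (20.1%) were called with opposite signs and 254 with the same sign. Low levels also bear on some of them, since 328 stayed under 0.5 CPM in both pLENTI6 groups and 171 in both TPLKO groups. These counts overlap, so that some genes were under 0.5 CPM in all 4 groups. At least 0.5 CPM in a group of each experiment was reached by 956. Postn, a matrix protein, went from 31.5, 30.1 and 30.8 to 326, 323 and 319 CPM with sh3, but the 6 pLENTI6 libraries held 2 counts in all. No overexpression change can be given for it.

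Ptx3, a secreted pentraxin of innate immunity, went from 0.532, 0.690 and 0.502 to 35.3, 36.1 and 35.6 CPM with sh3, and its pLENTI6 libraries all lay between 2.96 and 3.73 CPM. Its difference of 6.14 (SE 0.17) came from the knockdown, since the overexpression change of -0.20 was not called (adjusted p = 0.127, edgeR). Ndnf, a secreted neurotrophic factor, went from 76.5, 75.1 and 77.3 to 16.3, 15.7 and 17.7 CPM with sh3, and its pLENTI6 libraries lay between 15.3 and 17.5 CPM whatever the construct. Tns1, a focal adhesion protein, fell from 67.9, 67.2 and 71.0 to 14.5, 14.4 and 14.1 CPM with sh3, while the pLENTI6 arms overlapped (64.5, 72.0 and 75.7 against 68.0, 67.4 and 66.5 CPM). In Cryab, a small heat shock protein, the overexpression gave the larger part: its change was -0.44 with sh3 and 1.72 with OE_DSTYKwt, where it went from 1.59, 1.44 and 1.45 to 5.15, 4.65 and 4.91 CPM.

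Gene lists showed the same mix. Over all tested genes 26.1% had a higher and 25.8% a lower difference, with a median of 0.0135, and 9.12% were opposite. Of 27 genes of the NRF2 antioxidant response, 20 had a higher and 1 a lower difference (median 0.753), and 6 were called up with sh3 and down with OE_DSTYKwt, none the reverse. Besides Nqo1, these were the subunit genes of the enzyme that starts glutathione synthesis, Gclc and Gclm, the peroxiredoxin gene Prdx1, and Pgd and Me1, which make NADPH. Gclc went from 66.6, 67.8 and 65.9 to 109, 111 and 112 CPM with sh3 and from 52.0, 55.5 and 53.8 to 43.5, 42.3 and 44.7 CPM with OE_DSTYKwt, without overlap (difference 1.03, SE 0.043). Another 6 members rose in both, among them the glutathione transferase gene Gsta4 (1.89 and 0.37) and Osgin1 (1.64 and 0.37), so that the list's median was 0.727 with sh3 and -0.0182 with OE_DSTYKwt.

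Of 27 TNF and NF-kB targets, 19 had a higher and 2 a lower difference (median 0.463), and 8 were up with sh3 and down with OE_DSTYKwt. The subunit genes Nfkb1 (0.30 and -0.13), Nfkb2 (0.26 and -0.21) and Relb (0.45 and -0.24) were among them, as were the inhibitor gene Nfkbie (0.97 and -0.41), which lies on chromosome 17, and the adaptor gene Traf1 (0.72 and -0.57). Nfkbie went from 6.63, 7.27 and 6.91 to 14.1, 13.5 and 13.1 CPM with sh3 and from 20.2, 19.9 and 19.7 to 15.2, 14.7 and 15.1 CPM with OE_DSTYKwt. Its groups did not overlap, and in either experiment the higher arm was the one with less Dstyk. Other inhibitors of the pathway fell in both, Nfkbib (-0.40 and -0.26) and Tnfaip3 (-0.69 and -0.28), and Birc2 and Birc3 rose in both. Lif (-0.09 and 0.42), a cytokine, was the only member with the reverse pattern, and 0 had it with library size alone or with chromosome medians removed.

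Cell-death genes also split. Of 32 members of the death receptor and BCL2 list, 14 had a higher and 10 a lower difference (median 0.112). Ripk3, the kinase that drives necroptosis, stood at 3.39, 3.71 and 3.84 CPM with empty TPLKO and 6.43, 6.41 and 5.67 CPM with sh3, and at 3.95, 3.75 and 4.04 CPM with empty pLENTI6 and 1.29, 1.45 and 1.29 CPM with OE_DSTYKwt. The empty arms stood at a like level and the altered arms lay on either side, with changes of 0.76 and -1.54 (difference 2.30, SE 0.15; adjusted p = 7.42e-09, edgeR). Ripk1 (-0.12 and 0.16) and Casp8 (-0.28 and 0.11), which act with Ripk3 downstream of death receptors, had small changes the other way, but 0 members of the list did with chromosome medians removed. Bcl2l1, Bcl2l2, Bad and Bmf shared the direction of Ripk3. Of the p53 targets, the cell-cycle inhibitor gene Cdkn1a (1.57 and -0.70), Btg2 (2.05 and -0.61) and Trp53inp1 (1.77 and -0.47) were up with sh3 and down with OE_DSTYKwt, among 10 higher and 7 lower differences in 25 members. Rrm2b had the reverse pattern. Another 5 members moved the same way, with Sesn1, Plk2 and Perp higher and Pmaip1 and Tigar lower in both.

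FGF genes fell on both sides. Fgfr1 stood at 97.0, 100 and 106 CPM with empty TPLKO and 84.8, 82.9 and 77.7 CPM with sh3, and at 242, 240 and 246 CPM with empty pLENTI6 and 298, 297 and 293 CPM with OE_DSTYKwt. It was the abundant receptor in the pLENTI6 experiment, and its changes of -0.31 and 0.29 gave a difference of -0.59 (SE 0.049; adjusted p = 1.32e-07, edgeR). Fgfr2 went the other way, from 15.4, 16.8 and 15.7 to 20.7, 19.9 and 19.9 CPM with sh3 and from 7.90, 7.85 and 8.02 to 4.54, 5.40 and 5.20 CPM with OE_DSTYKwt (difference 0.99, SE 0.089). The ligand genes Fgf2 (0.90 and -0.26) and Fgf7 (1.2 and -0.51) moved like Fgfr2, whereas Nrg1 (-0.29 and 0.32), a ligand of ERBB receptors, moved like Fgfr1. Of the 34 members of the receptor tyrosine kinase list 7 were opposite and 15 moved the same way, or 4 and 12 with chromosome medians removed. Of 25 ERK pathway targets, 15 had a higher and 5 a lower difference, but only Etv5 (0.88 and -0.18) and Fosl1 (0.50 and -0.11) were opposite (1 gene with library size alone or with chromosome medians removed), and Egr1 (3.19 and 0.34) and Dusp6 (1.26 and 0.08) rose in both.

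Interferon genes divided into opposite subsets. Of 35 members 14 were opposite, 9 of them lower with sh3 and higher with OE_DSTYKwt and 5 the reverse, and the list's median difference was -0.227. The 9 included Irf7 and Irf9, transcription factors of the interferon response, and Ddx58, Oas1a and Adar, which sense or edit double-stranded RNA. Ddx58 went from 139, 139 and 143 to 115, 117 and 118 CPM with sh3 and from 77.8, 82.0 and 81.3 to 88.2, 93.3 and 93.4 CPM with OE_DSTYKwt (difference -0.45, SE 0.040). Its groups did not overlap in either experiment. The 5 were the antiviral effector genes Ifit1, Ifit2, Oasl1, Rsad2 and Cmpk2. Ifit1 went from 2.15, 2.38 and 2.08 to 6.4, 5.43 and 6.58 CPM with sh3 and from 2.58, 2.22 and 2.18 to 1.74, 1.42 and 1.24 CPM with OE_DSTYKwt, again without overlap (difference 2.13, SE 0.20). Rsad2 was under 2 CPM in every library, with 0.169, 0.0667 and 0.126 CPM against 1.03, 1.19 and 1.10 CPM with sh3, and 1.52, 1.93 and 1.68 CPM against 0.0452, 0.0474 and 0.119 CPM with OE_DSTYKwt. Without empty pLENTI6 replicate 1, 7 and 5 members remained in the opposite subsets by count.

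Stress and protein-folding lists were lower in the difference without being opposite. All 22 genes of endoplasmic reticulum chaperones and the unfolded protein response were lower with sh3, and 21 had a lower difference (median -0.388), but 14 were lower with OE_DSTYKwt as well and only Xbp1 was opposite (-0.40 and 0.09). Hspa5, the main chaperone of that organelle, went from 3250, 3320 and 3340 to 1700, 1690 and 1670 CPM with sh3 and from 2290, 2220 and 2210 to 2150, 2140 and 2130 CPM with OE_DSTYKwt. It fell in both, by 0.97 and by 0.06 on the log2 scale. Proteasome subunits were alike, with 24 of 31 lower in the difference and 12 lower in both experiments. Cholesterol synthesis had 16 of 27 lower in the difference and 8 lower in both.

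Genes of the ATF4 amino acid response held 7 opposite members and 3 of the same direction. Of 24 members, 18 had a lower and 4 a higher difference (median -0.391). Members lower with sh3 and higher with OE_DSTYKwt were Trib3, Chac1, Psph, Pycr1 and Stc2, which are targets in amino acid stress, synthesis and secretion, while Ddit4 and Vldlr had the reverse pattern. Trib3, a pseudokinase, went from 80.2, 81.0 and 81.7 to 47.8, 48.7 and 48.5 CPM with sh3 and from 18.7, 16.3 and 18 to 22.3, 21.4 and 20.4 CPM with OE_DSTYKwt (difference -1.02, SE 0.062). Its groups did not overlap. Atf4 itself was lower with sh3 (-0.53) and its overexpression change of 0.01 was not called (adjusted p = 0.932, edgeR). Aminoacyl-tRNA synthetases, many of which ATF4 induces, had 18 of 20 lower in the difference, with Aars, Dars, Eprs and Tars opposite in this direction, Qars in the other and 6 lower in both. With chromosome medians removed, 2 synthetases were opposite, 1 in each direction.

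Metabolic and ribosomal lists leaned the other way. Of 34 genes of glycolysis and hypoxia, 18 had a higher and 7 a lower difference (median 0.251), and 7 were up with sh3 and down with OE_DSTYKwt. More members moved the same way (11) than in opposite directions (8). Of the 11, 8 were lower in both, among them Hk2, Aldoa, Gapdh and Eno1, and 3 were higher in both. Slc2a1, the glucose transporter GLUT1, went from 58.5, 58.3 and 59.7 to 75.0, 73.8 and 73.9 CPM with sh3 and from 77.0, 75.4 and 74.8 to 51.2, 48.7 and 50.3 CPM with OE_DSTYKwt, without overlap (difference 0.93, SE 0.038). Its relative Slc2a3, at under 8 CPM, had the reverse pattern (-0.61 and 0.63). Ldha and Pkm, the last enzymes of the pathway, had changes of 0.10 and -0.17 and of 0.19 and -0.07. Of 75 cytosolic ribosomal protein genes, 54 had a higher and 0 a lower difference (median 0.227), and 13 were up with sh3 and down with OE_DSTYKwt. Their summed level ranged from 50900 to 57200 CPM over the empty pLENTI6 libraries, and without replicate 1 of that group the members higher and lower with OE_DSTYKwt went from 3 and 20 to 8 and 12. Their processed pseudogenes make single members uncertain. Of 13 mitochondrially encoded genes 11 had a higher difference and 3 were opposite, or 7 without the same library.

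Further lists were mostly divided. Of 36 genes of the TGF-beta and BMP pathway, 13 had a higher and 5 a lower difference (median 0.0857). Those counts were 17 and 5 with library size alone, with chromosome medians removed and without empty pLENTI6 replicate 1. In the list, 4 were up with sh3 and down with OE_DSTYKwt, and 9 were lower in both. Inhbb, an activin and inhibin subunit, was one of the 4 and went from 1.43, 2.14 and 1.61 to 5.33, 5.46 and 6.96 CPM with sh3 and from 1.42, 1.6 and 1.26 to 0.113, 0.237 and 0.358 CPM with OE_DSTYKwt. The empty arms of Inhbb overlapped in level, and the altered arms lay on either side of them. Of 39 matrix genes 18 had a higher and 17 a lower difference, and 5 were opposite. Of 44 S phase genes, 24 were lower and 2 higher in the difference (median -0.134), or 17 and 5 with library size alone. Of 52 G2 and M phase genes, 25 were lower and 9 higher (median -0.0862), or 16 and 11 with library size alone, and 4 were opposite. Of 64 nuclear genes of oxidative phosphorylation, 14 were higher and 20 lower in the difference, and 11 were opposite. That lean turned with library size alone (19 higher and 12 lower), and 3 were opposite with chromosome medians removed. Without empty pLENTI6 replicate 1, members lower with sh3 and higher with OE_DSTYKwt went from 3 to 7. The autophagy list (35 genes) had 11 higher, 12 lower and 9 opposite members, or 11, 6 and 5 with chromosome medians removed. The mTOR list (38 genes) had 13 higher, 16 lower and 4 opposite, or 14, 14 and 6 with library size alone. Of 21 genes that govern killing by lymphocytes, 12 were higher and 2 lower in the difference (median 0.353), or 13 and 4 with chromosome medians removed, and 4 were opposite.

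**Figure D4:**
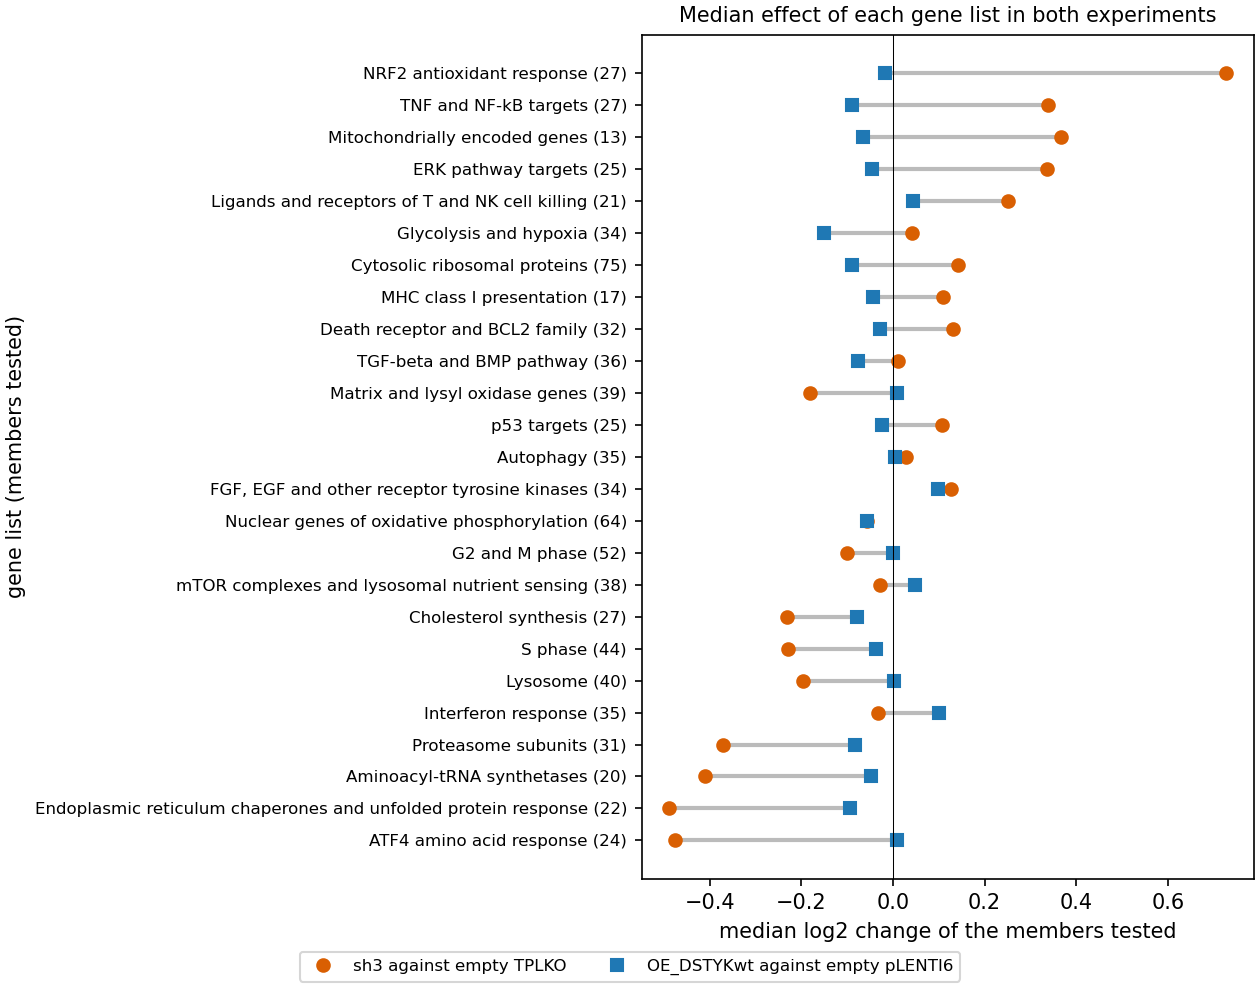
For 25 gene lists, sorted by their median difference, the circle gives the median log2 change of the tested members with sh3 and the square that with OE_DSTYKwt (x axis); the number of members tested is in brackets. The NRF2 list (0.727 and -0.0182) and the chaperone list (-0.488 and -0.0944) show that most of the spread lies in the knockdown.

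Of 40 lysosome genes, 23 had a lower and 6 a higher difference (median -0.141), and 8 were lower with sh3 and higher with OE_DSTYKwt, among them 4 on chromosome 8. Lamp1, the membrane protein, Asah1, the acid ceramidase, Mcoln1, the calcium channel, and Atp6v0d1, of the proton pump, lie on chromosome 8. Gusb and Scarb2 lie on chromosome 5 and Atp6v1h on chromosome 1. Lamp1 went from 1280, 1310 and 1320 to 785, 794 and 780 CPM with sh3 and from 849, 839 and 837 to 922, 917 and 925 CPM with OE_DSTYKwt. Its groups did not overlap, and the difference was -0.86 (SE 0.026). After removal of chromosome medians, 7 of the 40 remained opposite in this direction by count, and the list's median was -0.216.

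Opposite genes were spread unevenly over the genome. On chromosome 8, 162 of 792 tested genes (20.5%) were lower with sh3 and higher with OE_DSTYKwt, and on chromosome 1, 110 of 878 (12.5%), against 4.57% over all tested genes. The reverse pattern held for 82 of 511 genes (16%) on chromosome 19 and 81 of 773 (10.5%) on chromosome 17, against 4.54%. Whole chromosomes leaned in these directions. The median changes with sh3 and with OE_DSTYKwt were -0.185 and 0.0698 on chromosome 8, 0.282 and -0.0574 on chromosome 19, and 0.248 and -0.0315 on chromosome 17. In 25-megabase steps along chromosome 8, the median ranged from -0.277 to -0.0837 with sh3 and from 0.0428 to 0.185 with OE_DSTYKwt, with the same signs in every step. With each chromosome's median removed, 1014 genes were opposite and 2030 moved the same way, so that the opposite share was 33.3%. The counts fell to 76 on chromosome 8 and 15 on chromosome 19 in the directions named. What moved whole chromosomes was not tested.

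**Figure D5:**
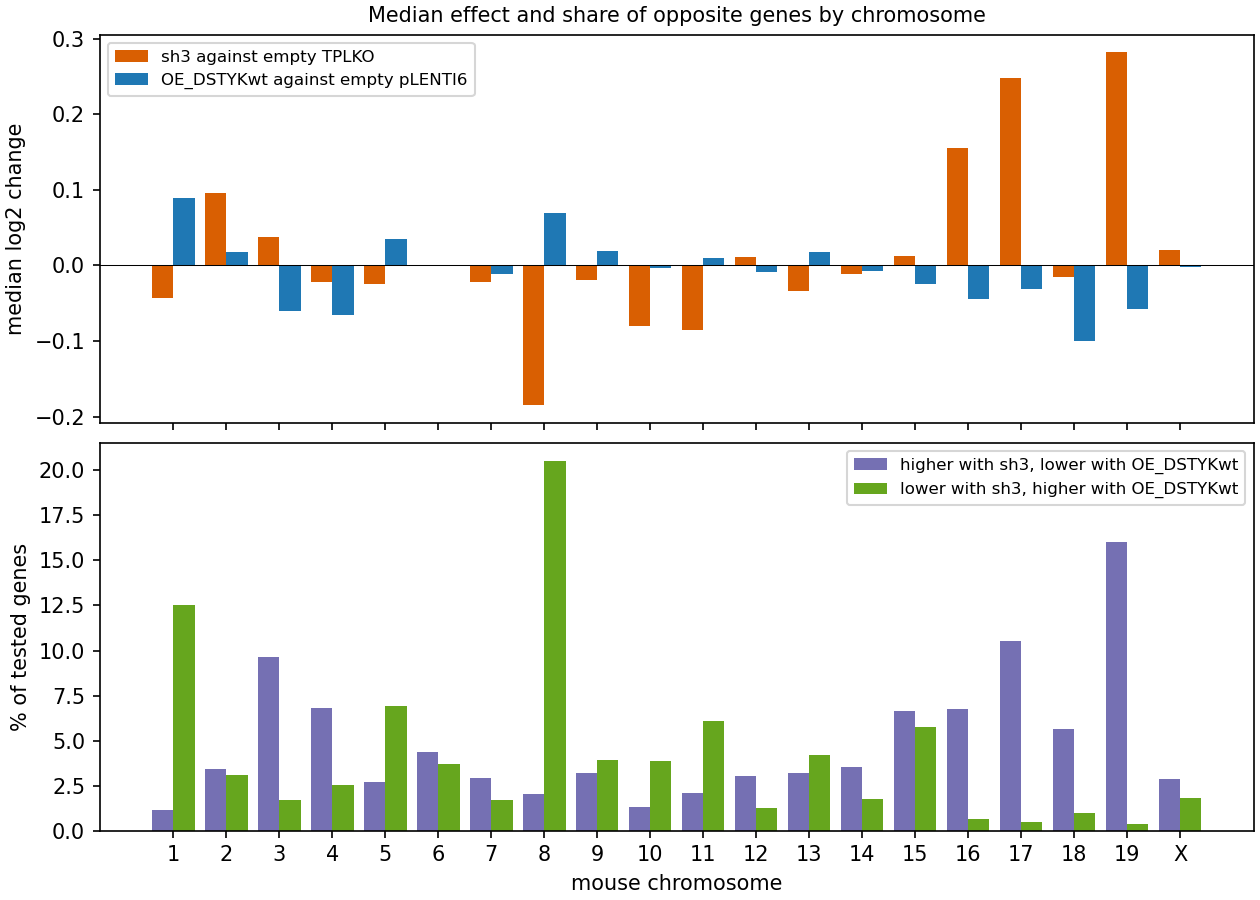
The upper panel gives the median log2 change of the tested genes of each chromosome with sh3 and with OE_DSTYKwt, and the lower panel the percentage of its tested genes in each opposite pattern. Chromosome 8 stands out for genes lower with sh3 and higher with OE_DSTYKwt (20.5%) and chromosome 19 for the reverse (16%).

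Large opposite responses were also counted by chromosome. Of the 113 genes up with sh3 and down with OE_DSTYKwt by at least 1.5-fold (0.755% of all tested), 16 lay on chromosome 3 (756 tested). Chromosome 6 held 15 (729 tested), chromosomes 2 and 15 held 9 each (1195 and 572 tested), and chromosome 19 held 3 (511 tested). Of the 14 with the reverse pattern (0.0935%) 4 lay on chromosome 8 (792 tested), the most of any chromosome, among them Adgra2 and Xkr5. These 14 are too few to compare chromosomes. For antigen presentation genes, many of them on chromosome 17, the result changed with removal of chromosome medians. Of 17 MHC class I genes, 9 had a higher and 5 a lower difference, with a median of 0.2. With chromosome medians removed, 5 were higher and 6 lower, with a median of -0.0797. Of the 10 squamous markers tested, 5 were called higher in both experiments, and the desmosomal plakophilin gene Pkp1 was opposite (-0.21 and 0.35). Trp63 went from 2.35, 2.29 and 1.96 to 13.4, 13.2 and 13.9 CPM with sh3 and from 3.11, 2.46 and 2.71 to 6.30, 6.16 and 5.53 CPM with OE_DSTYKwt. Krt14, a basal keratin, rose in both by 2.19 and 0.74. Of the fibroblast markers tested, 6 of 8 had a higher difference, among them Pdgfra (3.04 and 1.01). The fibroblast list summed to 4200 to 5540 CPM in TPLKO libraries and 1620 to 1750 CPM in pLENTI6 libraries. Of 21 mesenchymal markers tested 11 had a higher and 2 a lower difference, and of 8 epithelial markers 2 and 3. The part of these markers in the other results was not tested.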

How the data were processed

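RNA of 12 UN-SCC679 libraries was analysed, 3 in each of 4 groups taken from the sample titles, out of 18 in the series. Per the labels' protocols, libraries came from a stranded mRNA kit and a NextSeq sequencer. The tools were kallisto and sleuth, and the build mm10, per the submitters' processing notes, without versions. The authors deposited estimated counts per transcript that were not normalized, in which reads shared by near-identical transcripts are divided among them. These were summed per gene with GENCODE M21 on GRCm38 (116816 of 118489 transcripts matched; 0.515% to 0.538% of counts were not) and rounded to whole numbers.

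All 4 groups entered 1 fit with edgeR 4.0.16 in R 4.3.3, with TMM scaling, the default filter of filterByExpr (count 10, total 15), the quasi-likelihood test and Benjamini-Hochberg adjustment. Standard errors are those of the fitted contrast, from the quasi-dispersion and the information matrix. The contrast was sh3 minus empty TPLKO, minus OE_DSTYKwt minus empty pLENTI6. Whether replicates are separate cultures is not in the labels, and p-values thus reflect no more than library-to-library spread, possibly technical. Repeated reads of 1 molecule are not told apart. Counts were simulated for 14975 genes with no outlying library. Changes were put into the sh3 group alone, in genes drawn from those above a low level. The difference of effects was recovered for 42% of genes changed 1.2-fold, 92% at 1.5-fold and 98% at 2-fold.

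The genes and 32 lists were chosen with earlier results of these data known. Named genes are Dstyk and sets chosen by rule. The 10 leading each opposite pattern, by the smaller of both changes, and the 5 leading each shared direction were called in both experiments. They had a curated symbol, a mean log2 CPM of 3 or more and no overlap between arms in either experiment. The 6 with the largest difference each way met the same symbol and level conditions and lacked overlap in at least 1 experiment. The 2 members of smallest adjusted p from each list were called in the difference, with no condition on level or overlap. List members called in opposite directions, and a few beside them, were named after their values were seen. Promoters (RefSeq, GRCm38.p6; 7 and 5 of the 10 genes of each pattern matched) are the first 2 of each pattern whose window overlaps no annotated exon; the GC box and TATA box were added after the sequences were seen. Alternatives were other scalings and filters, DESeq2 1.42.0, limma 3.58.1, replicate blocks, removal of chromosome medians and leaving out each library. A few list members are not reported here.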

Additional observations from a re-analysis of the deposited data

How the results depend on the processing

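Counts of called, opposite or same-direction genes over all tested genes stayed within 1.5 times their value under the alternatives run but 1: tested against a 1.5-fold difference rather than 0 (edgeR's glmTreat), the difference was called for 1397 genes, 1001 higher and 396 lower. The opposite share of genes called in both ran from 37.2% to 39.7%, except for 33.3% with chromosome medians removed. Leaving out each library in turn, opposite genes numbered 1014 to 1309 and the Dstyk difference ran from -0.81 to -0.75. Same-numbered replicates did not deviate together (correlations from -0.17 to 0.26; 1 of 6 libraries correlated best with its own number), and with a replicate block within each experiment 7421 differences were called and 1182 genes were opposite (7644 and 1309 with a block across experiments). With chromosome medians removed, the difference for mt-Nd1 became -0.03 (adjusted p = 0.531) and that for mt-Atp6 0.08 (adjusted p = 0.236), which follows from the median of 13 mitochondrial genes being removed, and the MHC class I median became -0.0797. Counts and medians of the gene lists were less stable, and several moves of their counts stand beside the lists. Under an alternative, 153 list medians moved by more than the spread between replicates, 326 did not and 1 reversed. The overexpression change of Prelp, at 31 against 10 counts, was 1.23 (adjusted p = 0.0961, edgeR) without OE_DSTYKwt replicate 2. Depth limits genes under about 0.5 CPM, and 3 libraries per group limit small changes.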
